A study of Mus musculus with 6 samples.

Results

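The hypoxia-inducible factors (HIF), their partners and the enzymes that mark them for destruction were followed in mouse liver as a group of 10 genes. They were the alpha subunits Hif1a, Epas1 and Hif3a, the beta subunits Arnt and Arnt2, the prolyl hydroxylases Egln1, Egln2 and Egln3, the asparaginyl hydroxylase Hif1an and the ubiquitin ligase subunit Vhl. The genes were chosen by name, with earlier results of these data known. Each was represented by its highest-mean probe set among those carrying that symbol alone. All 10 had such a probe set, out of 19550 genes with one of their own, and all 10 passed the filter on low values that left 14662 genes for testing. Vhl was the only member that passed the test in any of the 3 comparisons: it was lower in knockouts without ascorbic acid than in wild type.

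The arrays compared liver RNA of male mice of the C57BL/6NCrSlc background in 3 groups of 2 Affymetrix mouse gene arrays. Knockouts lacked SMP30/GNL (gene Rgn), the gluconolactonase that mice need to make ascorbic acid (AA, vitamin C). One knockout group received no AA (AA-deficient), the other drank AA in water stabilised with EDTA (AA-supplemented), and wild-type mice drank water without AA. All 3 groups ate the same diet lacking AA, so the wild type depended on its own synthesis. The labels state neither the age of the mice, the time without AA nor the deleted part of Rgn, nor whether water without AA held EDTA. Values are in the log units of the deposited table, which are read here as log10. The labels do not state the base, and reading the values as log2 or natural logs would shrink each fold. No label ties arrays of a group to separate mice; the p-values therefore reflect the spread between these samples alone, and part or all of it may be technical. A level in whole liver cannot tell fewer cells of a type from less RNA per cell.

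In normal oxygen the EGLN enzymes (also called PHD) hydroxylate prolines of the HIF alpha subunits. VHL, the recognition subunit of a cullin ubiquitin ligase, binds the hydroxylated protein, which is then destroyed by the proteasome. HIF1AN (factor inhibiting HIF) hydroxylates an asparagine and so blocks the binding of coactivators. These hydroxylases use iron and 2-oxoglutarate, and ascorbate keeps their iron in the reduced state. When hydroxylation fails, the alpha subunit pairs with ARNT and binds DNA at the core motif ACGTG or GCGTG. In liver, EPAS1 (HIF-2 alpha) is known for roles in lipid storage, erythropoietin and iron handling. The arrays measured transcripts and report neither HIF protein nor hydroxylase activity.

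The promoters below are those of the member that passed the test and of a pair of hydroxylases that are themselves known HIF target genes. Each is the stretch of 250 bases before the transcription start, from RefSeq (GRCm38.p6), 5′ to 3′ on the gene's strand, with capitals marking ACGTG or GCGTG on either strand. Vhl lies at chr6:113623744-113623993 on the plus strand, Egln1 at chr8:124949255-124949504 on the minus strand and Egln3 at chr12:54203875-54204124 on the minus strand.
Vhl: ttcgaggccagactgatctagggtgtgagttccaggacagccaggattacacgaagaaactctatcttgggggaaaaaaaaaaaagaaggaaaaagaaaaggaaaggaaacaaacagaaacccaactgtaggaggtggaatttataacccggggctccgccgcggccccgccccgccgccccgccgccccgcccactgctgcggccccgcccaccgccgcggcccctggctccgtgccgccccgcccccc
Egln1: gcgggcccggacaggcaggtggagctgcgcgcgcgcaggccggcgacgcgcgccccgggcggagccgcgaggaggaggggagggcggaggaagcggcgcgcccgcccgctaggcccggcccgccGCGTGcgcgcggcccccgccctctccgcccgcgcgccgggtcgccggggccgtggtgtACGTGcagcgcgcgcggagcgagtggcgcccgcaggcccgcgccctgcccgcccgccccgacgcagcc
Egln3: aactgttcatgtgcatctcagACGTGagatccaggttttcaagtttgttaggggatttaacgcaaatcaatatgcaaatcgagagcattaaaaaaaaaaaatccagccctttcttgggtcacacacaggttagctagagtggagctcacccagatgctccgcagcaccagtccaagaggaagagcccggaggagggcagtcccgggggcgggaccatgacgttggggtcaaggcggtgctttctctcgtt
The Egln1 stretch held 2 matches, beginning 126 and 68 bases before the start, and the Egln3 stretch held 1, beginning 229 bases before it. The Vhl stretch held 0. Of 9 members with a promoter in the RefSeq table, 6 had a match in at least 1 promoter, and of all 32851 promoter stretches of that length 38.6% had one. Members are counted there by gene and the background by stretch, and a gene such as Egln2 can have several stretches, so the shares are in unlike units. A match overlapping its own reverse complement (CACGTG) counts once. These are matches of letters only, and say nothing of binding in these livers.

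The targeted gene was checked first. Rgn stood at 2.070 and 1.996 on the wild-type arrays, at 0.339 and 0.141 on the AA-supplemented knockout arrays and at 0.229 and 0.297 on the AA-deficient ones. Its values followed the genotype labels on all 6 arrays. The knockout groups overlapped, so Rgn does not check which knockouts received AA. Hepatocyte markers (6 of 7 listed had a value) had mean levels between 2.07 and 2.23 on every array. Arrays of one group correlated at 0.965 to 0.975 over all probe sets, and arrays of different groups at 0.945 to 0.974. Markers of macrophages, stellate cells, cholangiocytes, lymphocytes and erythroid cells gave 0 genes past the adjusted threshold in limma in each comparison. Of these markers 7, 7, 3, 3 and 1 were tested, in that order. At most 4.63% of all genes passed in any comparison, so 0 among so few markers says little about these cells. Between AA-deficient knockouts and wild type the difference was positive for 7, 4, 1, 2 and 0 of them, in the same order. Endothelial markers are given with Epas1 below.

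In AA-deficient knockouts against wild type, which differ in both the gene and AA, 1 of the 10 members passed an adjusted p under 0.05 in limma, against 4.63% of all genes tested (1.55% lower and 3.08% higher). Vhl stood at 0.655 and 0.642 on the wild-type arrays, at 0.578 and 0.521 in AA-supplemented knockouts and at 0.419 and 0.437 in AA-deficient knockouts. The 3 groups did not overlap, with wild type highest, AA-supplemented knockouts between and AA-deficient knockouts lowest. Group means were 0.648 ± 0.0089 (SD, n = 2) in wild type, 0.550 ± 0.041 in AA-supplemented and 0.428 ± 0.013 in AA-deficient knockouts. From wild type to AA-deficient knockouts Vhl fell by 0.22 (SE 0.042, 95% interval -0.32 to -0.12), a level 1.66-fold lower (adjusted p = 0.0316 in limma). Vhl was also the only member with an unadjusted p under 0.05 there, against 20.4% of all genes. It ranked 345th of 14662 genes by p. The call was lost without any of the 4 arrays compared, with differences of -0.230 to -0.212. Those fits leave 1 array in a group and have little power for any gene. The Vhl call was also lost without the filter on low values (adjusted p = 0.0727 in limma) and after removal of a trend on gene span (0.0503). With the replicate number as a block its adjusted p was 0.0779, while the difference stayed between -0.23 and -0.20 in all 17 alternatives.

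Neither step between the groups passed for Vhl on its own. AA-deficient knockouts were 0.12 below AA-supplemented knockouts (SE 0.042, adjusted p = 0.365 in limma), and AA-supplemented knockouts were 0.099 below wild type (SE 0.042, adjusted p = 0.461). Both steps had an unadjusted p under 0.05, as 9.92% and 10.6% of all genes did in the same comparisons. Against either of the other groups, the level in AA-supplemented knockouts thus did not pass the adjusted test.

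**Figure D1:**
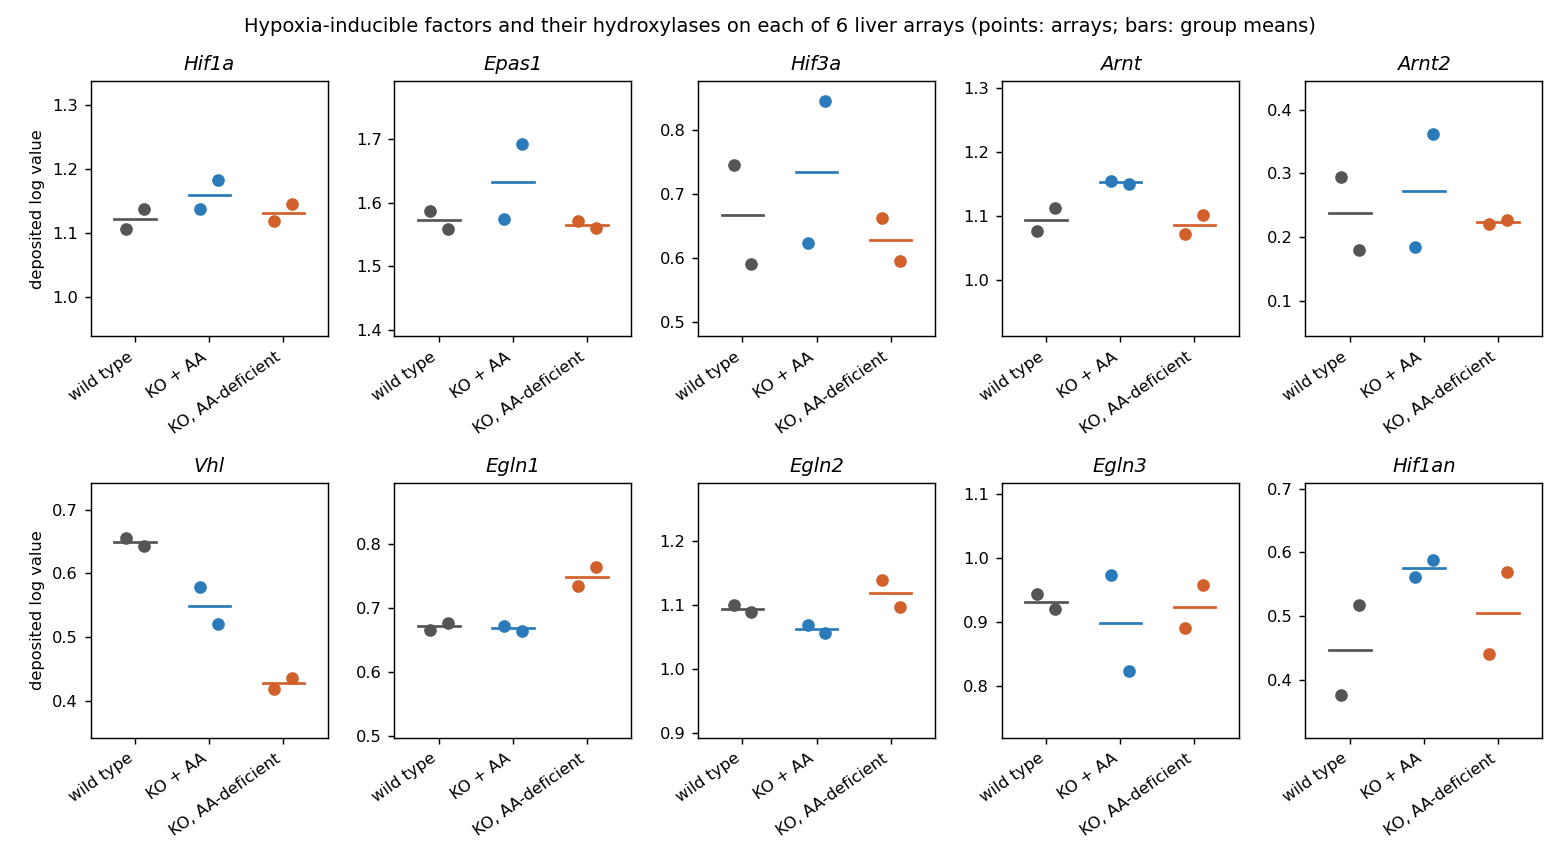
Deposited log value (vertical axis, the same span in every panel) of the 10 members on each array, with wild type in grey, AA-supplemented knockouts (KO + AA) in blue and AA-deficient knockouts in orange; points are arrays and bars are group means. Vhl steps down from 0.648 to 0.550 to 0.428, Egln1 is highest in AA-deficient knockouts, and the arrays of a group lie far apart for Hif3a, Arnt2, Egln3 and Hif1an.

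The transcripts of the alpha subunits did not differ between the groups by more than the test could resolve. Hif1a, the widely expressed subunit, stood at 1.106 and 1.138 in wild type, 1.137 and 1.182 in AA-supplemented and 1.118 and 1.144 in AA-deficient knockouts. All groups overlapped. The difference between AA-deficient knockouts and wild type was 0.0089 (SE 0.041, 95% interval -0.087 to 0.105), which on the log10 reading allows a level between 0.818-fold and 1.27-fold of wild type. Against AA-supplemented knockouts the difference was -0.029 (SE 0.041, interval -0.125 to 0.067).

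Epas1 stood at 1.587 and 1.559 in wild type, 1.574 and 1.692 in AA-supplemented and 1.570 and 1.560 in AA-deficient knockouts. Array 2 of the AA-supplemented knockouts stood above the other 5. AA-deficient knockouts were 0.067 below AA-supplemented knockouts (SE 0.049, interval -0.181 to 0.046, adjusted p = 0.766 in limma), and 0.0085 below them without that array. Against wild type the difference was -0.0077 (SE 0.049, interval -0.122 to 0.106). Endothelial cells, which also express Epas1, were followed by 11 markers, all with a value: their mean level was 1.02 to 1.07 on the AA-deficient arrays, 0.986 to 1.003 on the AA-supplemented ones and 0.977 to 0.989 on those of wild type. Of these markers 1 passed between AA-deficient knockouts and wild type (9.09%, against 4.63% of all genes). It was the scavenger receptor gene Stab2, which lay 0.24 above wild type in AA-deficient knockouts (SE 0.045, adjusted p = 0.0320 in limma). AA-supplemented knockouts already lay 0.141 above wild type (adjusted p = 0.351 in limma), and the knockout groups differed by 0.096 (adjusted p = 0.547). The alternatives were not run for Stab2. Between AA-deficient knockouts and wild type the differences were positive for 8 of the 11 and negative for 3: Pecam1 (-0.068), Clec4g (-0.073) and Fcgr2b (-0.048). None of those 3 passed. The part of the endothelial markers in the Epas1 values was not tested.

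Hif3a, whose products can act against the other alpha subunits, had the widest replicate spread of the members. It stood at 0.745 and 0.590 in wild type, 0.623 and 0.846 in AA-supplemented and 0.662 and 0.595 in AA-deficient knockouts, and all groups overlapped. AA-deficient knockouts differed from AA-supplemented knockouts by -0.106 (SE 0.080, interval -0.292 to 0.080), and by 0.0056 without array 2 of the AA-supplemented knockouts. Against wild type the difference was -0.039 (SE 0.080, interval -0.225 to 0.146).

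Among the beta subunits, Arnt, the usual partner of the alpha subunits, stood at 1.076 and 1.113 in wild type, 1.155 and 1.150 in AA-supplemented and 1.072 and 1.101 in AA-deficient knockouts. Both AA-supplemented arrays lay above the other 4. AA-deficient knockouts were 0.066 below AA-supplemented knockouts (SE 0.040, interval -0.160 to 0.027, adjusted p = 0.690 in limma), and AA-supplemented knockouts were 0.059 above wild type (SE 0.040, adjusted p = 0.664). Arnt2, best known from neurons, stood at 0.294 and 0.180 in wild type, 0.184 and 0.362 in AA-supplemented and 0.220 and 0.226 in AA-deficient knockouts. Its groups overlapped in all 3 comparisons, its adjusted p ranged from 0.893 to 0.937, and its mean was the closest of the members to the filter value of 0.185. No detection call was used here, so such a value cannot be separated from background.

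The prolyl hydroxylases showed small differences, none of which passed. Egln1 (PHD2), the main oxygen sensor of the family and a HIF target, stood at 0.666 and 0.677 in wild type, 0.672 and 0.664 in AA-supplemented and 0.734 and 0.763 in AA-deficient knockouts. Both AA-deficient arrays lay above the other 4. The difference was 0.080 against AA-supplemented knockouts (SE 0.039, interval -0.011 to 0.171, 1.20-fold, adjusted p = 0.574 in limma) and 0.077 against wild type (SE 0.039, interval -0.014 to 0.168, 1.20-fold, adjusted p = 0.326). These comparisons share the AA-deficient arrays. Between AA-supplemented knockouts and wild type Egln1 differed by -0.0029 (SE 0.039, interval -0.094 to 0.088).

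Egln2 (PHD1) stood at 1.099 and 1.089 in wild type, 1.068 and 1.056 in AA-supplemented and 1.139 and 1.097 in AA-deficient knockouts. The AA-supplemented arrays were the lowest of the 6. The difference between the knockout groups was 0.056 (SE 0.040, interval -0.037 to 0.149, adjusted p = 0.756 in limma). Egln3 (PHD3), a further HIF target, stood at 0.943 and 0.920 in wild type, 0.973 and 0.824 in AA-supplemented and 0.890 and 0.958 in AA-deficient knockouts. All its groups overlapped, and the knockout groups differed by 0.026 (SE 0.057, interval -0.106 to 0.157), or by -0.049 without array 2 of the AA-supplemented knockouts.

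Hif1an, the asparaginyl hydroxylase, stood at 0.376 and 0.518 in wild type, 0.562 and 0.588 in AA-supplemented and 0.441 and 0.569 in AA-deficient knockouts. Both AA-supplemented arrays lay above both wild-type arrays, while the AA-deficient arrays overlapped each of the other groups. AA-supplemented knockouts were 0.127 above wild type (SE 0.062, interval -0.016 to 0.270, adjusted p = 0.524 in limma). After Vhl, this was the largest difference among the members in any comparison.

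Between AA-deficient and AA-supplemented knockouts, where the genotype is the same, 0 of 10 members passed in limma, against 0.205% of all genes tested, and 1 (Vhl) had an unadjusted p under 0.05. The groups did not overlap for 5 members (37.3% of all genes): Vhl, Epas1 and Arnt were lower (17.5% of all genes) and Egln1 and Egln2 higher (19.8%). The median difference of the members was -0.058, against 0.000031 over all genes, and 7 of 10 were lower in AA-deficient knockouts. Between AA-supplemented knockouts and wild type 0 of 10 passed in limma, against 0.00682% of all genes, and again only Vhl had an unadjusted p under 0.05. There the groups did not overlap for 4 members (38.6% of all genes): Vhl and Egln2 were lower (18.8% of all genes) and Arnt and Hif1an higher (19.8%). The median was 0.037, against -0.0017. For AA-deficient knockouts and wild type the groups did not overlap for 2 members (Vhl lower, Egln1 higher), against 54.5% of all genes, and the median was -0.0076, against -0.0034. The median standard error of the members was 0.045, and the widest 95% interval, that of Hif3a, reached 0.186 to either side.

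**Figure D2:**
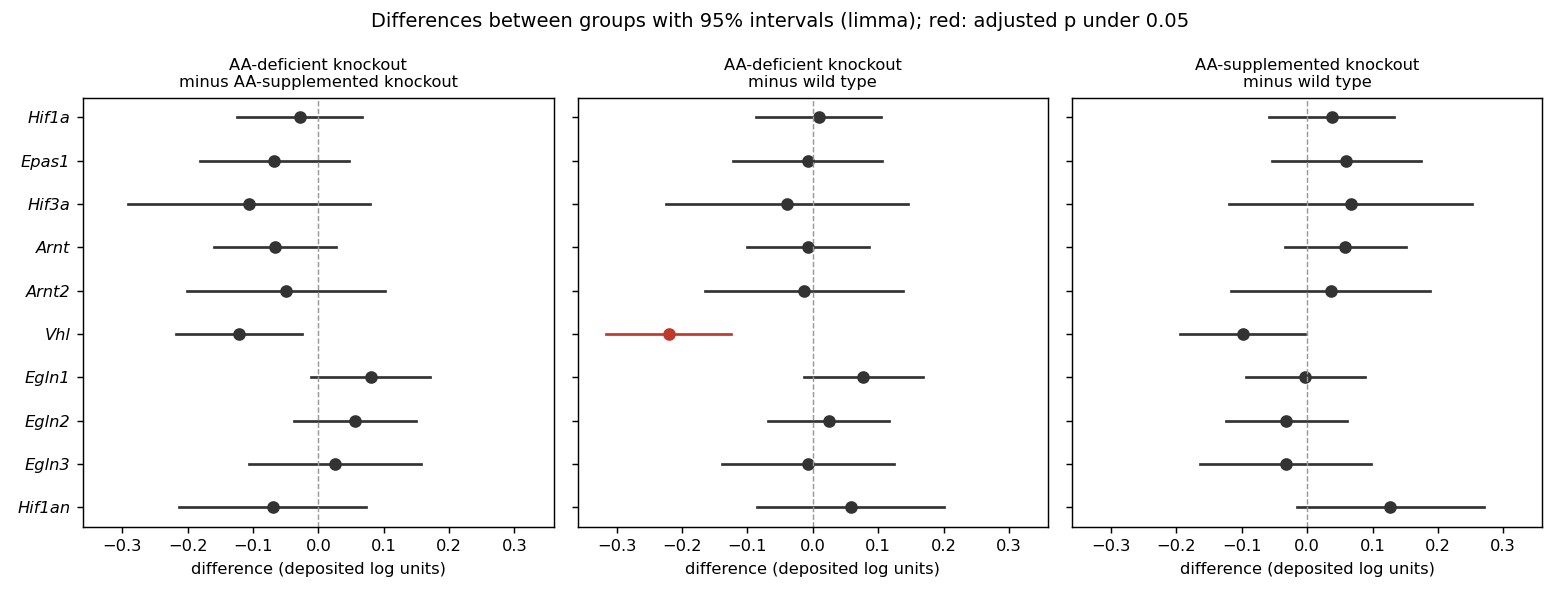
Difference between group means (horizontal axis, deposited log units) of each member in the 3 comparisons, as points with 95% intervals from limma, in red where the adjusted p was under 0.05. Vhl in AA-deficient knockouts against wild type, at -0.22, is the single red point, and the intervals of the other 9 members include 0 in every comparison.

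Partners of the VHL ubiquitin ligase were followed as a list of 10 genes, of which all were tested. They were Eloc, Elob, Cul2, Rbx1, Nedd8, Usp20, Usp33, Ube2d1, Ube2d2a and Ube2d3, and not all of these are subunits of the ligase. Against wild type, AA-deficient knockouts had 0 that passed in limma, 3 had an unadjusted p under 0.05 (20.4% of all genes), and 7 were lower, with a median of -0.048 against -0.0034 over all genes. The groups did not overlap for 6 of the 10, all lower, against 26.9% of all genes in that direction. Eloc (elongin C), which joins VHL to the cullin, stood at 1.105 and 1.098 in wild type, 1.025 and 0.981 in AA-supplemented and 0.952 and 0.983 in AA-deficient knockouts. The wild-type arrays lay above all 4 knockout arrays, and the knockout groups overlapped. AA-deficient knockouts were 0.134 below wild type (SE 0.041, adjusted p = 0.113 in limma, and 0.0348 with an intensity trend in the variance). Over the alternatives that did not leave out a single array, the adjusted p of Eloc in limma ranged from 0.0347 to 0.210.

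Rbx1, the RING subunit of the ligase, stood at 0.917 and 0.940 in wild type, 0.886 and 0.741 in AA-supplemented and 0.744 and 0.801 in AA-deficient knockouts. It was 0.156 below wild type in AA-deficient knockouts (SE 0.055, adjusted p = 0.162 in limma), and its other probe set was 0.165 below. The adaptor Elob (elongin B) differed by 0.0063 and the cullin Cul2 by -0.066 (adjusted p = 0.967 and 0.472), both named after their values were seen. Between the knockout groups 0 of the 10 genes of this list passed in limma and 0 had an unadjusted p under 0.05 (9.92% of all genes). Between AA-supplemented knockouts and wild type 0 passed and 1 had an unadjusted p under 0.05 (10.6% of all genes). In that comparison 8 of the 10 were lower, with a median of -0.031 against -0.0017 over all genes. The groups did not overlap for 5 of the 10, all lower, against 18.8% of all genes in that direction.

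By Pearson correlation over the 6 arrays, the genes tested whose pattern was most like that of Vhl were Jagn1, an endoplasmic reticulum membrane protein (r = 0.998), and Polr1e, a subunit of RNA polymerase I (r = 0.997). With 6 arrays in 3 groups such values describe these arrays only. Jagn1 stood at 1.071 and 1.054 in wild type, 1.021 and 0.983 in AA-supplemented and 0.909 and 0.916 in AA-deficient knockouts. Polr1e stood at 0.524 and 0.537 in wild type, 0.430 and 0.345 in AA-supplemented and 0.174 and 0.191 in AA-deficient knockouts, where its mean of 0.182 was under the filter value of 0.185. Both were picked for this pattern, so their order of groups is set by the choice and was not tested.

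**Figure D3:**
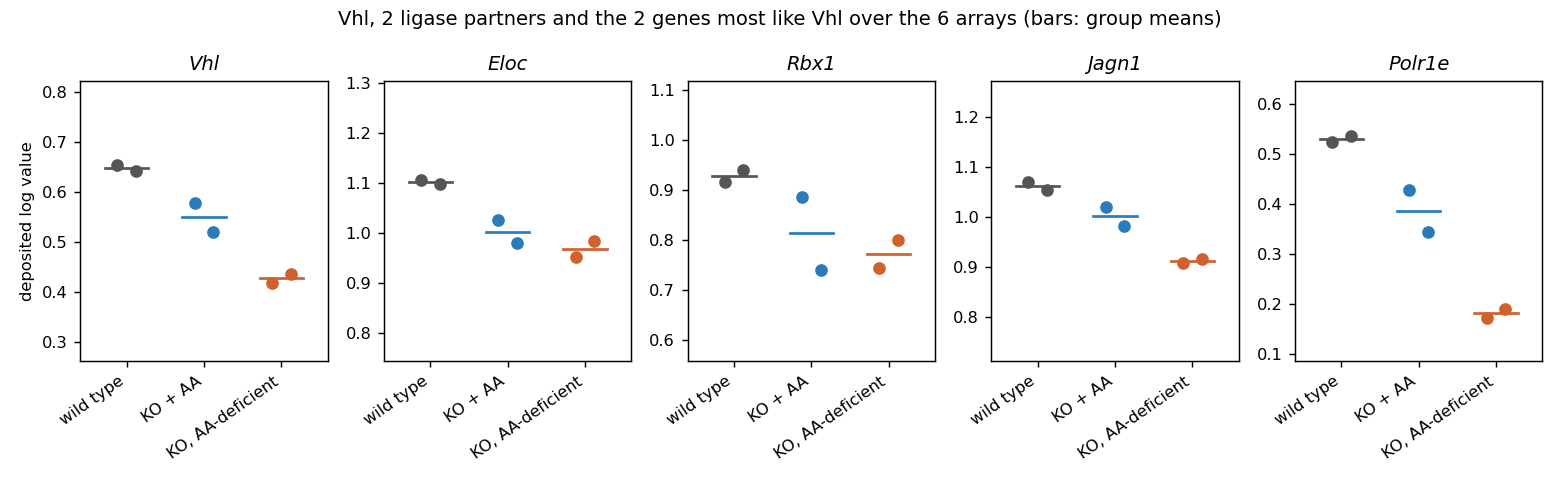
Deposited log value (vertical axis, the same span in every panel) on each array of Vhl, the ligase partners Eloc and Rbx1, and the genes most like Vhl, Jagn1 and Polr1e, with points for arrays and bars for group means. Vhl, and by choice Jagn1 and Polr1e, step down from wild type over AA-supplemented to AA-deficient knockouts without overlap, while the knockout groups of Eloc and Rbx1 overlap.

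Jagn1 is also a neighbour of Vhl on chromosome 6, so the 10 nearest tested protein-coding genes on each side of Vhl (gene order from RefSeq, GRCm38.p6) were described, a choice made after the Jagn1 value was seen. Of these 20 neighbours 1 passed in limma between AA-deficient knockouts and wild type, a share near the 4.63% of all genes, and 14 were lower. That gene was Cidec, a lipid droplet protein, at -0.47 (SE 0.046, adjusted p = 0.00520). The groups did not overlap for 10 lower and 3 higher of the 20 neighbours, against 26.9% and 27.6% of all genes, and the median was -0.033, against -0.0034. Jagn1 itself is among both the 14 and the 10 lower genes. It was picked for its likeness to Vhl, so these counts are not independent of that choice. The genes directly beside Vhl were Brk1, at -0.030 (SE 0.039), and Irak2, at 0.0072 (SE 0.052), and neither passed.

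**Figure D4:**
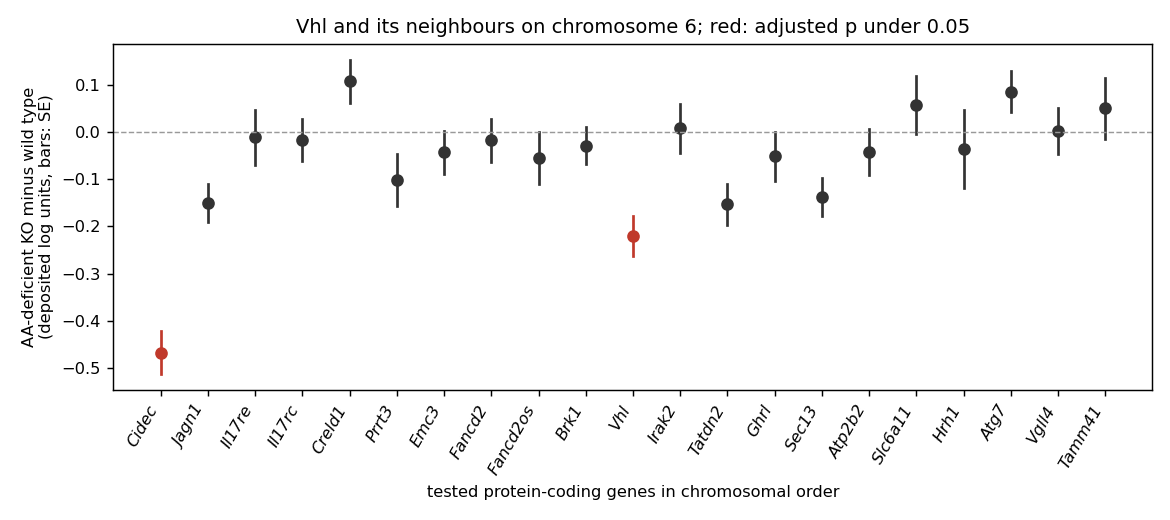
Difference between AA-deficient knockouts and wild type (vertical axis, deposited log units, bars: SE) for Vhl and 10 tested protein-coding genes to each side, in chromosomal order along the horizontal axis, in red where the adjusted p was under 0.05. Vhl at -0.22 and Cidec at -0.47 are red, and the genes directly beside Vhl lie near 0.

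Of 24 other listed regulators of HIF alpha subunits, 21 had a value and 20 were tested. From wild type to AA-deficient knockouts 2 rose and 1 fell in limma (15%, against 4.63% of all genes), and the median was 0.0062, against -0.0034. The list was chosen with earlier results of these data known, so its share is a description only. Crebbp, the coactivator CBP whose binding HIF1AN blocks, stood at 0.929 and 1.049 in wild type, 1.237 and 1.256 in AA-supplemented and 1.241 and 1.280 in AA-deficient knockouts. Both knockout groups lay above wild type and overlapped each other. Crebbp rose by 0.27 in AA-deficient knockouts (SE 0.050, 1.87-fold, adjusted p = 0.0303 in limma), and was 0.26 above wild type in AA-supplemented knockouts (adjusted p = 0.190). Mtor, the kinase that promotes HIF1A translation, stood at 0.739 and 0.766 in wild type, 0.879 and 0.901 in AA-supplemented and 0.928 and 0.964 in AA-deficient knockouts, without overlap. It rose by 0.19 (SE 0.041, 1.56-fold, adjusted p = 0.0424 in limma). Hsp90aa1, a chaperone that stabilises HIF1A, stood at 1.722 and 1.618 in wild type, 1.624 and 1.677 in AA-supplemented and 1.436 and 1.445 in AA-deficient knockouts, the lowest of the 6. Its level fell by 0.23 (1.69-fold lower; SE 0.048; adjusted p = 0.0430 in limma), and its other 2 probe sets were at -0.21 and -0.39. After removal of a trend on gene span the adjusted p was 0.0503 for Crebbp and Hsp90aa1 and 0.0855 for Mtor, and without a filter on low values it was 0.0699, 0.0914 and 0.0912 in the same order. All 3 calls were lost without any 1 of the 4 arrays compared, in fits that leave 1 array in a group and have little power for any gene. The differences then ranged from 0.21 to 0.33 for Crebbp, 0.18 to 0.21 for Mtor and -0.28 to -0.18 for Hsp90aa1. Between the knockout groups 0 of the 20 passed in limma, with 1 at an unadjusted p under 0.05 (9.92% of all genes), and between AA-supplemented knockouts and wild type 0 passed, with 6 (10.6% of all genes). The list medians in these comparisons were -0.0071 and 0.040, against 0.000031 and -0.0017 over all genes.

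Other partners of ARNT and members of the same protein family numbered 14 listed and 9 tested, and 1 rose in AA-deficient knockouts against wild type in limma (11.1%, while 3.08% of all genes rose). This was the coactivator Ncoa1, which stood at 0.541 and 0.627 in wild type, 0.765 and 0.767 in AA-supplemented and 0.809 and 0.841 in AA-deficient knockouts. It rose by 0.24 (SE 0.045, 1.74-fold, adjusted p = 0.0311 in limma), or 0.18 after removal of a trend on gene span (adjusted p = 0.0649). Without any 1 of the 4 arrays compared the difference was 0.20 to 0.28 and the call was lost, in fits that leave 1 array in a group. The adjusted p of Ncoa1 was 0.0713 in limma without the filter on low values. The list median was 0.088, against -0.0034 over all genes, with 7 of 9 higher. This list too was chosen with earlier results of these data known. In the other comparisons 0 of the 9 passed in limma, with 1 gene at an unadjusted p under 0.05 between the knockouts (9.92% of all genes) and 2 between AA-supplemented knockouts and wild type (10.6%). Between AA-supplemented knockouts and wild type the list median was 0.065, against -0.0017 over all genes, also with 7 of 9 higher. Between the knockouts it was 0.0022, against 0.000031, with 5 of 9 higher.

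Of 50 listed HIF target genes, 46 had a value and 39 were tested. Comparing AA-deficient knockouts with wild type, 2 rose and 0 fell in limma (5.13%, close to the 4.63% of all genes), 13 had an unadjusted p under 0.05 (20.4% of all genes), and the median was 0.022 (against -0.0034), with 22 higher and 17 lower. Igfbp1, which encodes a circulating carrier of insulin-like growth factors and is induced in fasting as well as by HIF, stood at 0.464 and 0.371 in wild type, 0.582 and 0.921 in AA-supplemented and 0.930 and 1.441 in AA-deficient knockouts. It rose by 0.77 in AA-deficient knockouts (SE 0.16, 5.86-fold, adjusted p = 0.0424), with the arrays of that group 0.51 apart. Without array 2 of that group the difference was 0.51, and without array 1 it was 1.02. The Igfbp1 call was lost without array 2 and without either wild-type array, in fits that leave 1 array in a group. Slc40a1 (ferroportin), the iron exporter, stood at 1.194 and 1.214 in wild type, 1.264 and 1.200 in AA-supplemented and 1.392 and 1.431 in AA-deficient knockouts. Both AA-deficient arrays lay above the other 4, and it rose by 0.21 against wild type (SE 0.043, 1.61-fold, adjusted p = 0.0418). The Igfbp1 call was also lost with a robust intensity trend (adjusted p = 0.172), quantile normalisation (0.0575) and cyclic loess (0.0544). Without the filter on low values the adjusted p in limma was 0.0892 for Igfbp1 and 0.0895 for Slc40a1. Slc40a1 lost its call without any 1 of the 4 arrays compared, with differences of 0.19 to 0.23, in fits that leave 1 array in a group.

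A few other targets were named after their values were seen. Vegfa, the endothelial growth factor, differed by 0.104 between AA-deficient knockouts and wild type (SE 0.040, adjusted p = 0.190 in limma), the glucose transporter gene Slc2a1 by -0.083 (SE 0.042, adjusted p = 0.324) and the mitophagy gene Bnip3 by -0.176 (SE 0.044, adjusted p = 0.0632). Ndrg1 differed by 0.211 in that comparison (SE 0.049, adjusted p = 0.0535 in limma). The erythropoietin gene Epo was under the filter and not tested, with means of 0.099 in wild type, 0.082 with AA and 0.051 without. Between the knockout groups 0 of 39 targets passed in limma, with 7 at an unadjusted p under 0.05 (9.92% of all genes), and between AA-supplemented knockouts and wild type 0 passed, with 8 (10.6%). The list medians there were -0.0078 and 0.029, against 0.000031 and -0.0017 over all genes. Between the knockouts 17 targets were higher and 22 lower in the AA-deficient group. Ndrg1 differed there by 0.198 (adjusted p = 0.209 in limma), Pfkfb3 by -0.357 (adjusted p = 0.0889) and Hmox1 by -0.214 (adjusted p = 0.119). Hmox1 was 0.263 higher in AA-supplemented knockouts than in wild type (adjusted p = 0.135 in limma).

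**Figure D5:**
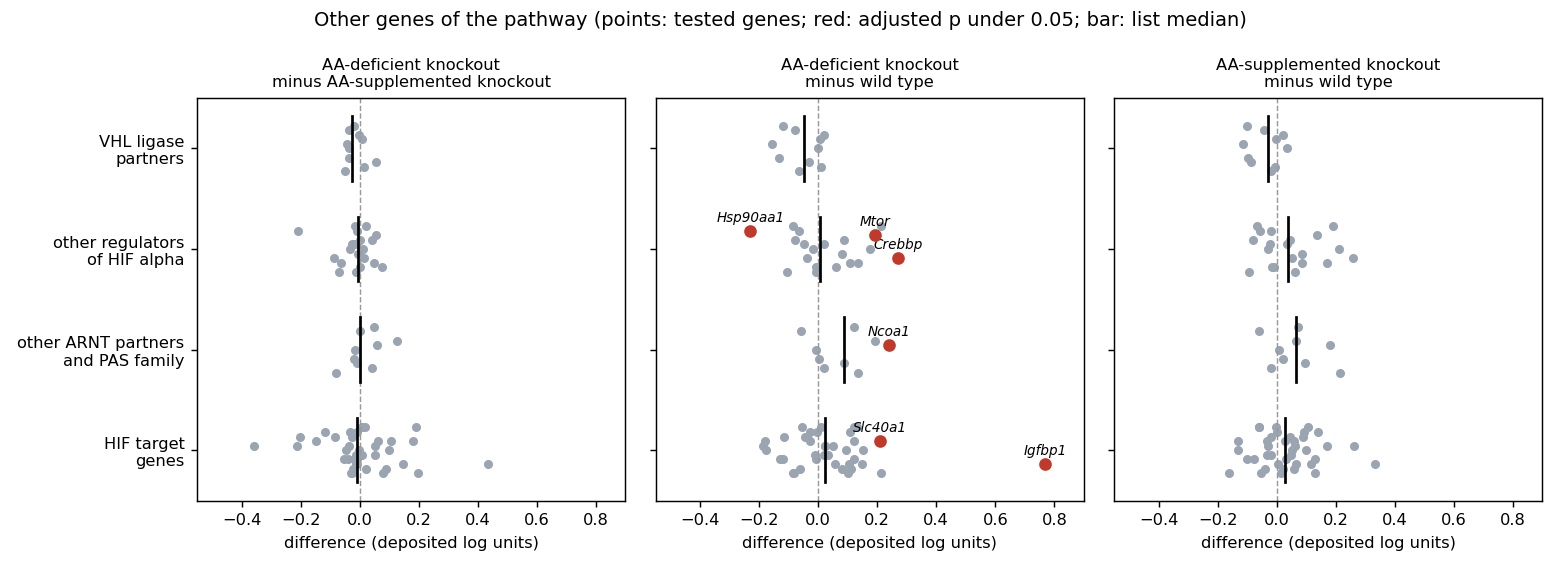
Difference between groups (horizontal axis, deposited log units) of the tested genes of the 4 lists in the 3 comparisons, with grey points for genes that did not pass, red named points for those with an adjusted p under 0.05 and black bars for list medians. All red points lie in the panels of AA-deficient knockouts against wild type, and HIF target genes lie on both sides of 0 in each comparison.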

How the data were processed

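Affymetrix mouse gene arrays measured liver RNA in 6 samples of male mice. The deposited values, read here as log10, form one table; how the authors normalised and summarised them, and with which software and log base, is not stated in the labels used here. They ran from -0.58 to 2.51 (1213-fold as log10, 8.48-fold as log2). Of 34760 probe sets, 3995 held no value; 21161 carried exactly 1 symbol in the platform annotation, and 925 genes with several such probe sets kept the one of highest mean. Genes whose mean reached the 25th percentile (0.185) entered limma 3.58.1 (R 4.3.3; lmFit and eBayes), with all 6 arrays in one fit, 3 residual and 4.89 prior degrees of freedom, two-sided, with Benjamini-Hochberg adjustment over all 14662 genes and a threshold of 0.05. The fit was tested on simulated data. The members and lists were chosen with earlier results of these data known. All members were named, with list genes that passed or, where none did, the 2 of smallest p; others are marked. Alternatives changed the filter, normalisation, variance model, arrays used, block, probe set choice and a gene span trend. The number of arrays limits the precision.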

Additional observations from a re-analysis of the deposited data

How the results depend on the processing

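The count of members that passed in AA-deficient knockouts against wild type, 1 (Vhl), became 0 without the filter on low values, with the replicate number as a block and after removal of a trend on gene span, and ranged from 0 to 1 when single arrays were left out. In the other comparisons it stayed 0 in all 17 alternatives. The fit with the replicate block is not a paired design: same-numbered arrays deviated together at r = -0.369 between the knockouts, 0.358 between AA-deficient knockouts and wild type and -0.284 between AA-supplemented knockouts and wild type, and the block changed the genes called from 30 to 4, 679 to 163 and 1 to 3 in that order. Every named list gene that passed, apart from the marker Stab2, which was not refitted, lost its call under the block (adjusted p 0.0537 to 0.0967). Of 507 refitted member differences, 475 kept direction and side of the threshold, 7 (all Vhl) lost the call and 25 changed sign, none of them past the threshold. In AA-deficient knockouts against wild type Hif1a was at -0.0016 after quantile normalisation and -0.0073 without the span trend, and Egln1 between AA-supplemented knockouts and wild type at 0.00037 after cyclic loess. With single arrays left out, differences that changed sign ranged, between the knockouts, from -0.218 to 0.0056 (Hif3a), -0.139 to 0.039 (Arnt2) and -0.049 to 0.100 (Egln3). In AA-deficient knockouts against wild type they ranged from -0.0069 to 0.025 (Hif1a), -0.022 to 0.0067 (Epas1), -0.117 to 0.038 (Hif3a), -0.026 to 0.011 (Arnt), -0.071 to 0.043 (Arnt2), -0.041 to 0.027 (Egln3) and -0.013 to 0.129 (Hif1an). In AA-supplemented knockouts against wild type the ranges were -0.045 to 0.179 (Hif3a), -0.053 to 0.125 (Arnt2), -0.0087 to 0.0028 (Egln1) and -0.108 to 0.042 (Egln3). The cause was not tested. Over the alternatives the count of all genes called ranged from 0 to 177 between the knockouts, from 1 to 1312 between AA-deficient knockouts and wild type, and from 1 to 116 between AA-supplemented knockouts and wild type; the highest counts came with a robust intensity trend, and 1 remained without either wild-type array. Arnt2 was under the filter at the 50th percentile. Where leaving out an array left 1 in a group, that array was assumed to vary like the others.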
